A study of Arundo donax with 12 samples.

Results

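Giant reed (Arundo donax L.) is a perennial grass grown for biomass, and the unigenes described here are the abundant transcripts that were read in its roots and were almost without reads in its leaves. They were chosen from a table of 126668 unigenes, the representative transcripts of a de novo assembly. Counts were first divided by the library total and multiplied by 1000000 (CPM). Unigenes below 1 CPM in all 6 leaf libraries and at or above 1 CPM in all 6 root libraries were kept, which left 3612 root-restricted unigenes, and the 200 of these with the highest median root CPM were taken. The leaf level, the root level and the contrast between the tissues were therefore used to choose them and carry no test below. The cadmium treatment was not used in the choice.

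All plants were of the G10 ecotype, each grown from a single stem node in a pot of clay soil in the open air from early May to the end of July. In the treated group (Cd) the soil carried 4 mg/kg cadmium nitrate, and the control group (CK) received ammonium nitrate to balance the nitrogen, so both groups had added nitrogen. The pots were arranged in randomized blocks, and the sample labels do not say which block a replicate came from. Leaf (L) and root (R) RNA was read from 3 biological replicates per treatment, which gave 12 libraries in the groups CK_L, Cd_L, CK_R and Cd_R. Library totals ran from 22157170 to 26033492 counts, so that 1 CPM stood for about 24 counts. The statements on cadmium concern whole roots after a long exposure in soil, and in such bulk tissue fewer cells of a type and less RNA per cell cannot be told apart.

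Roots are the organ that meets cadmium in the soil. They take up water and ions through membrane transporters, and their outer and inner barriers of lignin and suberin restrict the passage of ions toward the shoot. Root-restricted transcripts in grasses commonly include such transporters, secreted peroxidases that act in lignin formation and in the turnover of hydrogen peroxide, and proteins of the root's defence against soil microbes. The deposited table names unigenes only by cluster number, and gene names could be given only where the study's own annotation lists hold a unigene. Of 251 unigenes annotated in those lists, 8 were root-restricted and 0 were among the 200. The PCR table holds unigenes that the study selected from those it had called. Apart from the PCR table, the lists hold unigenes called between Cd_R and Cd_L after those called between CK_R and CK_L had been removed. That removal was likely to take out root-restricted unigenes, so the overlap tells nothing of function. It was also close to the share over all unigenes, since of all 126668 unigenes 3612 were root-restricted and 200 were taken. A further list, the study's table of cadmium-responsive root unigenes, held 107 unigenes, of which 18 were root-restricted and 3 were among the 200. Those 3 are described with their gene ontology (GO) terms below, and the function of the other 197 is not described.

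CK_R replicate 3 and Cd_R replicate 1 stood apart from the other root libraries. Unigenes with a count numbered 100357 and 105252 in these libraries against 81451 to 87756 in the other 4 root libraries. The share of counts outside the large cluster family Cluster-14691 was 1.22% and 1.96% against 0.442% to 0.477%. A set of 21 protein biosynthesis unigenes whose best database hits lie outside land plants, none of them among the 200, summed to 45.8 CPM in Cd_R replicate 1 and to 15.8 CPM in CK_R replicate 3. In the remaining root libraries this sum was 4.71 to 13.04 CPM, and in leaf libraries 1.07 to 3.02 CPM with 2 of the 21 detected. The 21 are from the study's protein biosynthesis list, called between Cd_R and Cd_L on these same libraries after the removal described above. That choice favoured low leaf values, detection in Cd_R and lower values in CK_R. All 21 were detected in CK_R replicate 3 and in each Cd_R library, 9 in CK_R replicate 1 and 17 in CK_R replicate 2. The part of this signal in the results below was not tested.

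The 200 unigenes took 1.30% to 2.93% of all root counts. Their summed level was 22017, 29271 and 15335 CPM in CK_R replicates 1, 2 and 3, and 13047, 23453 and 25444 CPM in the Cd_R replicates in the same order. The libraries lowest in this sum were Cd_R replicate 1 and CK_R replicate 3, one of each treatment, and the groups overlapped. The mean was 22208 ± 6970 CPM (SD, n = 3) in CK_R and 20648 ± 6658 CPM (SD, n = 3) in Cd_R, a difference smaller than the spread within either group. In leaf libraries the same 200 unigenes summed to 19.96 to 35.7 CPM. The 10 most abundant made up 25.8% to 39.1% of the sum in root, so that the total is set to a large part by a few unigenes.

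**Figure D1:**
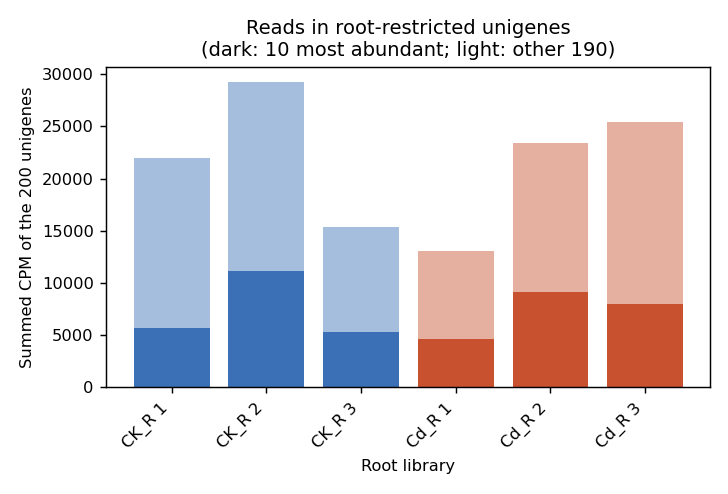
Summed CPM (vertical axis) of the 200 root-restricted unigenes in each root library, split into the 10 most abundant (dark) and the other 190 (light); blue bars are CK_R and red bars Cd_R. The sums run from 13047 CPM in Cd_R replicate 1 to 29271 CPM in CK_R replicate 2, and the treatments overlap.

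Median root levels ran from 29.8 to 1765 CPM with a median of 48.8 CPM. Only a few unigenes were very abundant: 14 had a median of at least 300 CPM, 33 of at least 100 CPM, and 107 lay under 50 CPM. CPM does not correct for transcript length and lengths are not in the table, so the order of the levels is an order of reads and not of molecules.

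Cluster-14691.16246 ranked first, with 1236, 3863 and 1327 CPM in CK_R and 1017, 2203 and 2355 CPM in Cd_R. The groups overlapped, with CK_R replicate 2 highest, and the log2 fold change of Cd_R against CK_R was -0.38 (SE 0.61). Cluster-14691.16329, the second, stood at 935, 912 and 296 CPM in CK_R and at 135, 1416 and 892 CPM in Cd_R. Its lowest values were those of CK_R replicate 3 and Cd_R replicate 1, and its log2 fold change was 0.01 (SE 0.85). Cluster-14691.15566, the third, had a different order, with 52.5, 572 and 1283 CPM in CK_R and 1121, 1339 and 579.8 CPM in Cd_R. Here CK_R replicate 1 was alone at the bottom and the groups overlapped. Cluster-14691.16271 stood at 690.2, 1628 and 628 CPM in CK_R and at 42.4, 1139 and 923 CPM in Cd_R, where replicate 1 lay far below every other library.

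Among ranks 5 to 10, Cluster-14691.16043 is taken up with the cadmium comparison, since its groups did not overlap. Cluster-14691.74042 had 1007, 2495 and 537 CPM in CK_R and 90.5, 307 and 589 CPM in Cd_R. Its groups overlapped only through CK_R replicate 3 and Cd_R replicate 3. Cluster-14691.74013, with 499.7, 318 and 63.9 CPM in CK_R and 55.2, 588 and 557 CPM in Cd_R, was low in the same pair of libraries. The largest ratio of highest to lowest library among ranks 5 to 10 was that of Cluster-14691.74038, at 489. It had 535, 377 and 56.0 CPM in CK_R and 1.09, 428 and 395 CPM in Cd_R. Its value in Cd_R replicate 1 rests on 25 counts and is the lowest root value of any of the 200. Cluster-14691.74094 stood at 155, 427 and 541 CPM in CK_R and at 396, 369 and 259.7 CPM in Cd_R, and Cluster-14691.21254 at 345, 418 and 96.8 CPM in CK_R and at 68.2, 541 and 436 CPM in Cd_R. The groups of both overlapped, and only the second was low in CK_R replicate 3 and Cd_R replicate 1.

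**Figure D2:**
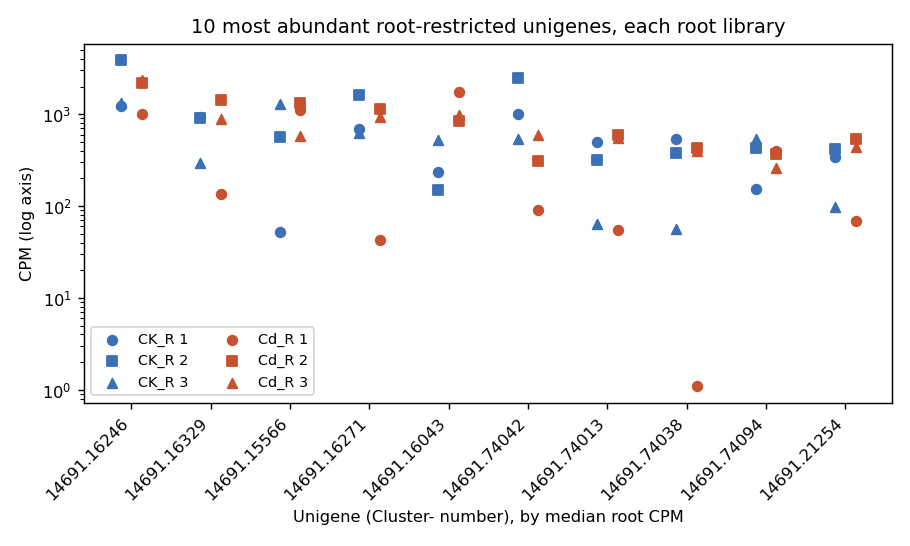
CPM (log axis) of the 10 most abundant root-restricted unigenes in each root library; blue marks are CK_R, red marks Cd_R, and circles, squares and triangles are replicates 1, 2 and 3. Groups overlap in 9 of the 10, and several unigenes have Cd_R replicate 1 (red circle) as the lowest mark, down to 1.09 CPM for Cluster-14691.74038.

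The leaf values show how far these unigenes were from the leaf limit. No leaf count at all was found for 31 of the 200, and 17 had 1 to 3 counts over the 6 leaf libraries together, while 48 had a count in every leaf library. The highest leaf value of a unigene was 0.256 CPM in the median and 0.960 CPM at most, and 47 unigenes reached 0.5 CPM in a leaf library. For the 152 unigenes with more than 3 leaf counts, the root level was 47.6 to 24305 times the leaf level, with a median of 457, each level being the counts summed over the 6 libraries of a tissue divided by their summed totals. The largest of these ratios was that of Cluster-14691.16246, whose 12 leaf counts stood against 278986 root counts. Among the 31 without a leaf count, Cluster-14691.74042 was at least 41433-fold higher in root, with 3 counts over the leaf libraries taken as the floor, and the lowest such bound was 1334-fold. These ratios follow from the choice of the unigenes and cover counting error only.

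At the lower end of the ranking, Cluster-14691.70710 (29.9 CPM) and Cluster-14691.74506 (29.8 CPM) were the last to be taken. The next, Cluster-14691.16016 (29.8 CPM) and Cluster-14691.14971 (29.7 CPM), were left out with nearly the same median. Cluster-14691.16290, Cluster-14691.15848 and Cluster-14691.15879 came nearest the leaf limit, each at 0.960 CPM. Cluster-14691.7598, a root-restricted unigene at rank 3557, came nearest the root limit at 1.00 CPM. The 2 most abundant unigenes that failed only the leaf limit, Cluster-14691.48639 and Cluster-14691.47318, had median root levels of 11061 and 10523 CPM and reached 19714 and 2887 CPM in leaf.

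Many unigenes failed a limit narrowly: 3035 failed only the leaf limit and stayed below 2 CPM in leaf. The 2 of these with the highest median root CPM, and 1 that failed the root limit, were named after their values were seen. Cluster-14691.16304 reached 1.47 CPM in a leaf library and stood at 2318, 1547 and 2561 CPM in CK_R and at 4176, 9198 and 7087 CPM in Cd_R. Every Cd_R value lay above every CK_R value, with a log2 fold change of 1.54 (SE 0.44), and DESeq2 called it (adjusted p = 0.0206) where edgeR's quasi-likelihood test did not. Cluster-14691.16299 reached 1.51 CPM in leaf and ranged from 12.3 CPM in Cd_R replicate 1 to 2509 CPM in CK_R replicate 1. Cluster-14691.15878 was the single unigene below the leaf limit with a sufficient median that failed the root limit. It stood at 202, 385 and 1.52 CPM in CK_R and at 0, 3.38 and 112 CPM in Cd_R, so that both treatments held a library near 0.

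The 200 varied widely between root libraries, which the choice had not fixed. The coefficient of variation (CV, SD divided by the mean) over the 6 root libraries had a median of 0.672 with quartiles of 0.508 and 0.826. It was 0.467 for the other 3412 root-restricted unigenes, 0.356 for all 55317 unigenes tested, and 0.224 for the 6650 other tested unigenes with at least the median root level of the last of the 200. The highest root library was 8.59 times the lowest in the median, against 1.85 times for those 6650. Of the 200, 86 spanned more than 10-fold and 3 less than 2-fold. The spread was similar within the treatments, with median CVs of 0.671 in CK_R and 0.651 in Cd_R. With the lowest count of any of the 200 at 25, counting error alone is small beside such differences. These values are descriptions, since unigenes of one library are not independent.

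The least variable was Cluster-14691.16046, with 132, 153 and 98.2 CPM in CK_R, 99.3, 118 and 123 CPM in Cd_R, and a CV of 0.173. It had no leaf count and overlapped between treatments. Cluster-14691.18853, with 26.01, 41.9 and 22.8 CPM in CK_R and 32.5, 36.3 and 34.3 CPM in Cd_R, had a CV of 0.215. Its near neighbour in number, Cluster-14691.18856, had 20.5, 40.4 and 22.5 CPM in CK_R and 27.8, 33.5 and 34.7 CPM in Cd_R, with a CV of 0.256. Both were highest in CK_R replicate 2. Cluster-14691.15879 (CV 0.246) and Cluster-14691.70710 (CV 0.262) completed the 5 steadiest, with 22.2 to 49.3 CPM and 17.5 to 39.4 CPM.

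At the other end, Cluster-14691.15677 had a CV of 1.66, with 1.94, 15.3 and 345 CPM in CK_R and 1029, 32.5 and 40.4 CPM in Cd_R. Its highest values were those of Cd_R replicate 1 and CK_R replicate 3, and the highest was 529.8 times the lowest. Cluster-14691.74711 shared that order, with 11.1, 13.2 and 52.7 CPM in CK_R and 278, 52.5 and 23.0 CPM in Cd_R (CV 1.43). Cluster-14691.73988 had the reverse order, with 403, 61.8 and 17.6 CPM in CK_R and 15.3, 80.8 and 176 CPM in Cd_R (CV 1.18). Cluster-14691.15524 was likewise low in both of these libraries, with 33.6, 74.7 and 12.1 CPM in CK_R and 15.3, 111 and 276 CPM in Cd_R (CV 1.15). The remaining one of the 5 most variable, Cluster-14691.15684 (CV 1.27), was high in CK_R replicate 2 and is described with the cadmium comparison.

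Much of this spread followed the same pair of libraries. Cd_R replicate 1 was the lowest root library for 114 of the 200 and CK_R replicate 2 the highest for 62. CK_R replicate 3 and Cd_R replicate 1 together were the lowest pair for 108 unigenes, or 54.0%. The same pair was lowest for 29.7% of the other root-restricted unigenes and for 12.7% of all unigenes tested. They were the highest pair for 18 of the 200 (9.0%), against 18.9% of all unigenes tested. Across the 200 unigenes, log2 CPM had a Pearson correlation of 0.785 between CK_R replicate 3 and Cd_R replicate 1, 0.780 between Cd_R replicates 2 and 3, and 0.758 between CK_R replicate 1 and Cd_R replicate 3. Within a treatment it was as low as 0.151 between CK_R replicates 1 and 3 and 0.220 between Cd_R replicates 1 and 3. These correlations are over 200 unigenes that share the same libraries and were chosen on a common limit, and they are given as a description.

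**Figure D3:**
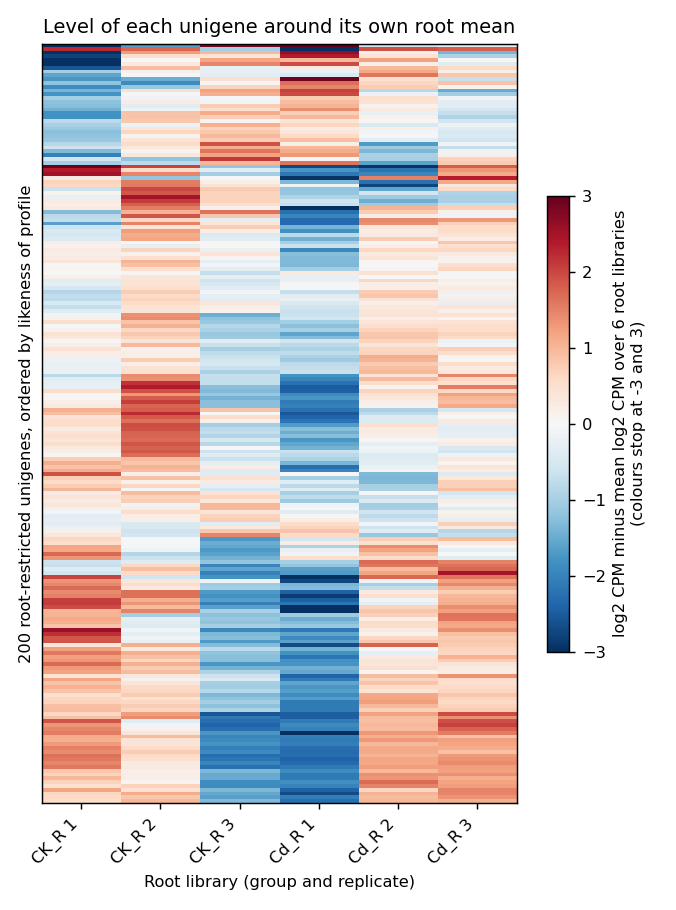
Each row is 1 of the 200 root-restricted unigenes and each column 1 root library; the colour is log2 CPM minus the mean log2 CPM of that unigene over the 6 root libraries, red above and blue below, with colours stopping at -3 and 3. The lower block of rows is blue in CK_R 3 and Cd_R 1 together, the lowest pair for 108 unigenes, and a smaller block at the top is red in both.

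The unigene numbers showed a clustering that the choice had not used. All 200 belonged to Cluster-14691, the largest cluster family of the assembly, which holds 66.1% of all unigenes and each of the 6650 other abundant unigenes, so that membership of the family is not particular to them. Within the family, the numbers 74000 to 74999 held 52 of the 200, 15000 to 15999 held 48 and 16000 to 16999 held 30. These 3 ranges were picked as the fullest of 84 ranges of up to 1000 numbers, a choice that favours the share of the 200. Together the 3 ranges held 65% of the 200, 16.1% of the other root-restricted unigenes, 1.89% of the 6650 other abundant unigenes and 3.82% of all unigenes tested. For 118 of the 200, another of the 200 lay within 10 numbers. Numbers lie closer together in fuller ranges in any case, and no such count was made for other unigenes. What neighbouring numbers share is not given in the sources used here. Clusters of this assembly were built from transcripts that share reads, and reads of near-identical copies may have been split between them, so the values of neighbours may not be independent.

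To ask whether cadmium changed these unigenes in root, Cd_R was compared with CK_R by edgeR's quasi-likelihood test over all 55317 unigenes that passed the expression filter. All 200 passed that filter, as their choice by root level made likely. A unigene was called at an adjusted p of at most 0.05 (Benjamini-Hochberg over all unigenes tested) together with a log2 fold change of 1 or more in size. None of the 200 was called, nor was any other unigene, so the share called was 0%, and the lowest adjusted p was 0.999. At an unadjusted p under 0.05 by edgeR there were 18 of the 200 (9.0%), against 4.62% of all unigenes tested. Of these, 15 were lower in Cd_R (7.5% of the 200, background 2.82%) and 3 were higher (1.5%, background 1.8%).

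The log2 fold changes of the 200 lay lower and wider than those of all unigenes. Their median was -0.28 with quartiles of -0.90 and 0.18, against a median of -0.02 over all unigenes tested. Values below 0 were found for 130 of the 200 (65%, against 51.8% of all), values of -1 or less for 41 (20.5%, against 6.28%), and values of 1 or more for 10 (5.0%, against 3.55%). The standard error was also larger, with a median of 0.74 against 0.42 for all unigenes. With library totals in place of TMM the median was -0.12 for the 200 and 0.14 over all unigenes, a similar distance apart. The distance rested on single libraries. Without CK_R replicate 2 the median was -0.02 for the 200, against -0.02 for all unigenes, without Cd_R replicate 1 it was -0.07, and without Cd_R replicate 3 it was -0.57. With CK_R replicate 3 and Cd_R replicate 1 both left out it was -0.26.

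**Figure D4:**
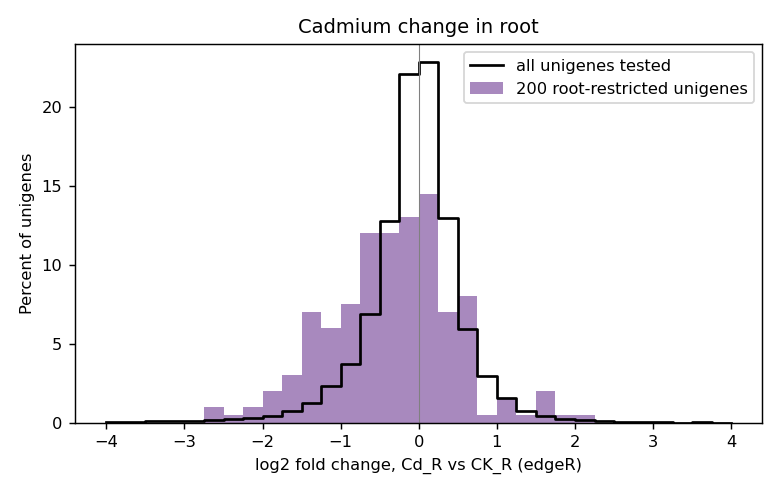
Percent of unigenes (vertical axis) by edgeR log2 fold change of Cd_R against CK_R (horizontal axis, bins of 0.25); purple bars are the 200 root-restricted unigenes and the black line all 55317 unigenes tested. The bars are wider than the line and extend further to the left, with 20.5% at or below -1 against 6.28% of all.

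In 13 of the 200 every Cd_R value lay below every CK_R value (6.5%, background 2.73%), and in 2 every Cd_R value lay above (1.0%, background 8.33%). Both directions together came to 15 (7.5%, background 11.1%). The split of the background moved with the scaling: on TMM-scaled CPM the groups were apart in 14 of the 200 downward (background 4.34%) and in 2 upward (background 5.44%). The numbers also moved with the libraries that stood apart, and so did the background, since fewer libraries leave more room for groups to be apart. Without CK_R replicate 3, 41 of the 200 were apart downward (background 7.43%) and 7 upward (background 21.7%). Without Cd_R replicate 1, 17 were apart downward (background 6.02%) and 24 upward (background 14.7%). Without both, 44 were apart downward (background 11.2%) and 30 upward (background 28.6%).

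DESeq2, run with its defaults as an alternative, called 185 of 40321 unigenes (0.459%). It called 6 of the 200, all lower in Cd_R (3.0%, background 0.312% in that direction), and none higher (background 0.146%). A p-value was withheld for 1 of the 200, Cluster-14691.15677. Without independent filtering of low counts, 3 of the 6 were called, among 107 of 119042 unigenes called in all. edgeR called none of the 6, each with an adjusted p of 0.999.

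Cluster-14691.15438 was the steadiest of the 6, with 69.3, 85.9 and 83.0 CPM in CK_R and 31.5, 33.2 and 43.9 CPM in Cd_R. The groups were well apart and each was narrow. The log2 fold change was -1.27 (SE 0.24), with an unadjusted p of 0.00124 by edgeR and an adjusted p of 0.00119 by DESeq2. Leaving out single libraries moved the log2 fold change only between -1.48 and -1.16. The study's annotation gives this unigene the GO terms copper ion binding and electron transfer activity, the terms carried by the small blue copper proteins of plants. It also gives the process terms autophagy and electron transport, the latter marked obsolete.

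Cluster-14691.74477 had 61.2, 104 and 53.5 CPM in CK_R and 6.26, 14.99 and 20.4 CPM in Cd_R. The highest Cd_R library lay well under the lowest CK_R library. The log2 fold change was -2.54 (SE 0.53), with an adjusted p of 0.00344 by DESeq2 and 0.999 by edgeR. Its GO terms are lipid metabolic process and hydrolase activity acting on ester bonds, which describe lipases and related esterases. Cluster-14691.74151 carries the GO terms peroxidase activity, heme binding and response to oxidative stress, those of the heme peroxidases that use hydrogen peroxide to oxidise phenolic compounds. It stood at 51.9, 185 and 70.5 CPM in CK_R and at 28.6, 15.7 and 22.0 CPM in Cd_R. CK_R replicate 2 was far above the rest, and the groups were apart. The log2 fold change was -2.39 (SE 0.56), with an adjusted p of 0.0141 by DESeq2 and 0.999 by edgeR, and it was -1.57 without CK_R replicate 2. These 3 unigenes have GO terms here because the study listed them as cadmium-responsive on these same libraries, so their direction is not independent evidence.

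The other 3 carried no annotation in the lists and shared one profile, with CK_R replicate 2 highest and narrow Cd_R values. Cluster-14691.74315 stood at 101, 339.8 and 152 CPM in CK_R and at 42.3, 63.2 and 49.2 CPM in Cd_R. Its log2 fold change was -2.11 (SE 0.50), with an adjusted p of 0.0197 by DESeq2 and 0.999 by edgeR. Cluster-14691.13919 had 46.2, 139 and 56.0 CPM in CK_R and 25.5, 18.7 and 24.4 CPM in Cd_R. The log2 fold change there was -1.99 (SE 0.49), with an adjusted p of 0.0339 by DESeq2 and 0.999 by edgeR. Cluster-14691.15684 reached 82.1, 539 and 151 CPM in CK_R against 50.8, 45.9 and 48.5 CPM in Cd_R. With a log2 fold change of -2.60 (SE 0.72) it had the largest decrease of the 200, with an adjusted p of 0.0427 by DESeq2 and 0.999 by edgeR. The groups of all 3 were apart. Without CK_R replicate 2 the log2 fold changes of these 3 were -1.39, -1.26 and -1.35, so that this 1 library held a large part of each difference. Cluster-14691.14971, just outside the 200, had the same order, with 37.5, 139.8 and 56.5 CPM in CK_R and 21.9, 15.7 and 21.4 CPM in Cd_R, and was called by DESeq2 (adjusted p = 0.0339) but not by edgeR.

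Only 2 unigenes had every Cd_R value above every CK_R value. Cluster-14691.16043, the fifth most abundant, stood at 236, 148 and 527 CPM in CK_R and at 1723, 849 and 992 CPM in Cd_R. Within each treatment the library that stood apart was the highest, and the lowest Cd_R value was still above the highest CK_R value. The log2 fold change was 1.85 (SE 0.51), with an unadjusted p of 0.00885 and an adjusted p of 0.999 by edgeR, and it was 2.09 with CK_R replicate 3 and Cd_R replicate 1 both left out. Cluster-14691.24561 had 56.9, 52.2 and 56.3 CPM in CK_R and 107, 68.0 and 118 CPM in Cd_R. Its CK_R values were almost equal, and its log2 fold change was 0.68 (SE 0.26), with an unadjusted p of 0.0386 and an adjusted p of 0.999 by edgeR. Cluster-14691.74042, the sixth most abundant, had a log2 fold change of -2.20 (SE 0.86) and an unadjusted p of 0.0399 by edgeR with overlapping groups, and the log2 fold change was -1.33 without CK_R replicate 2.

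**Figure D5:**
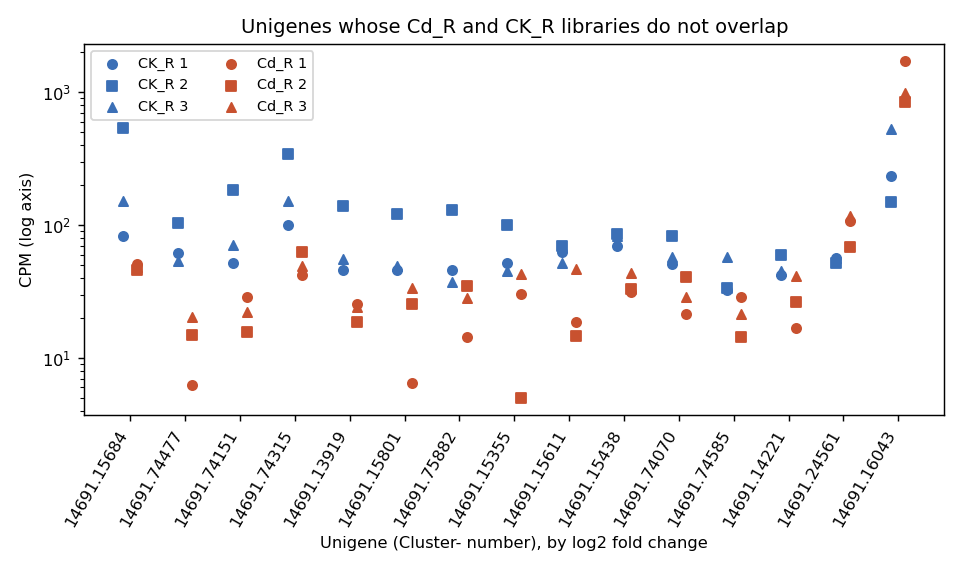
CPM (log axis) in each root library of the 15 root-restricted unigenes whose Cd_R (red) and CK_R (blue) values do not overlap, ordered by log2 fold change; circles, squares and triangles are replicates 1, 2 and 3. In 13 the red marks lie below the blue, often with CK_R replicate 2 (blue square) far above, and in Cluster-14691.24561 and Cluster-14691.16043 they lie above.

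The 8 annotated root-restricted unigenes all ranked below the 200. The highest was Cluster-14691.76303, at rank 209, which the study's PCR table names as an ABC transporter, a family of ATP-driven membrane pumps. It had 33.5, 135 and 53.3 CPM in CK_R and 21.4, 24.6 and 21.4 CPM in Cd_R. Its groups were apart and CK_R replicate 2 was highest, the order seen in Cluster-14691.74315. The log2 fold change was -1.90 (SE 0.54), with an unadjusted p of 0.0103 and an adjusted p of 0.999 by edgeR, and it was -1.04 without CK_R replicate 2. Cluster-14691.18708, at rank 1188 and listed in the same table under the name Glycine, had 1.704, 4.46 and 1.19 CPM in CK_R and 16.3, 10.7 and 9.46 CPM in Cd_R. Every Cd_R library was above every CK_R library, with a log2 fold change of 2.12 (SE 0.57), an unadjusted p of 0.00804 and an adjusted p of 0.999 by edgeR. The study selected its PCR unigenes from those called on these same libraries, so the separated groups of both are not independent evidence. The study designed PCR primers for both, and they are shown, 5′ to 3′, because they are the sequences given here for root-restricted unigenes with separated groups.
Cluster-14691.76303 forward: gttctacacctgctccgacg
Cluster-14691.76303 reverse: cgatagcacgtacgaggacc
Cluster-14691.18708 forward: cggcattggcgggtataaag
Cluster-14691.18708 reverse: attatcgccgccaccagag

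The remaining 6 annotated unigenes were scarce and their groups overlapped. Cluster-14691.13800, a basic leucine zipper (bZIP) transcription factor at rank 1371, stood at 36.6, 4.42 and 4.42 CPM in CK_R and at 4.81, 7.18 and 13.04 CPM in Cd_R, with CK_R replicate 1 alone high. Cluster-14691.74646, annotated as a xyloglucan fucosyltransferase that adds fucose to a hemicellulose of the cell wall, ranged from 1.27 to 6.41 CPM. Cluster-14691.10370, listed in the PCR table as GQ55, ranged from 1.84 to 7.81 CPM. A tyrosine-tRNA ligase (Cluster-32296.0), which loads tyrosine onto its tRNA, lay between 1.39 and 2.57 CPM. The ribosomal protein unigenes Cluster-14691.13059 (a mitochondrial small subunit protein) and Cluster-14691.55073 (RPS25, of the cytosolic small subunit) lay between 1.27 and 3.76 CPM and between 1.23 and 1.98 CPM. None of the unigenes in the heavy metal transporter, nutrient uptake, polyamine, phytohormone or reactive oxygen scavenging lists was root-restricted. Unigenes called between CK_R and CK_L had been removed from these lists, which was likely to take out root-restricted ones. This absence therefore does not show that root-restricted unigenes lack such functions.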

How the data were processed

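The authors assembled the reads of all libraries de novo with Trinity, reduced the transcripts with Corset and deposited expected counts per unigene and library, estimated with RSEM and not normalized. Replicates were not pooled, and 88.6% of the deposited values were whole numbers. Here the expected counts were rounded to whole numbers for the tests. CPM used the unrounded counts and library totals. Cd_R was compared with CK_R with edgeR 4.0.16 (R 4.3.3; TMM, filterByExpr, quasi-likelihood test), and with DESeq2 1.42.0 as an alternative. The standard error of an edgeR log2 fold change was its size divided by the square root of F. The procedure was also run on simulated counts with known changes, drawn independently for each unigene. The simulation lacked the likeness of CK_R replicate 3 and Cd_R replicate 1, so it cannot vouch for the calls reported here. The p-values measure the spread between 3 pots per group, and a two-sided exact permutation test of a single value could not go below 0.1.

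The 200 unigenes, the lists and the tests were chosen with earlier results of these data known. Unigenes were named by rule: the 10 highest medians, the 5 largest changes in each direction with groups apart, the 5 lowest and highest CVs, those next to each limit, those annotated in the study's lists, and those called by either tool. Unigene sequences and lengths were not used here. Leaf libraries served for the choice, for the leaf levels and in an alternative fit of all 12 libraries together. The study's own fold changes and p-values were not used.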

Additional observations from a re-analysis of the deposited data

How the results depend on the processing

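Calls depended on the tool. Against 0 with edgeR under any scaling, filter or left-out library, DESeq2 called 185 of 40321 unigenes and 6 of the 200 with its defaults. Without independent filtering it called 107 of 119042 unigenes and 3 of the 200. No same-numbered pairing could be shown: the correlations of same-numbered deviations were -0.30, 0.46 and -0.37. The highest correlation across treatments, 0.63, was between CK_R replicate 3 and Cd_R replicate 1. The replicate block fit called 0 unigenes, with 18 of the 200 under an unadjusted p of 0.05 by edgeR (background 3.52%). Of the 200, those under that limit numbered 10 to 29 when a library was left out (10 without CK_R replicate 2, background 4.07%, 11 without Cd_R replicate 2, background 1.97%, 29 without CK_R replicate 3, background 6.89%) and 44 without CK_R replicate 3 and Cd_R replicate 1 (background 7.07%). Unigenes with groups apart numbered 15 to 48 (28 without CK_R replicate 1, background 18.8%, 48 without CK_R replicate 3, background 29.1%, 41 without Cd_R replicate 1, background 20.8%, 33 without Cd_R replicate 3, background 22.8%), and 74 without both (background 39.9%). Limits of 0.5 and 2 CPM in leaf left 2172 and 6647 unigenes, and 2 CPM in root 1876. Of the 200, 131 were retaken with the 2 CPM leaf limit and 126 when ranked by the lowest root library. Without the 10 most abundant, the summed means were 14807 CPM in CK_R and 13379 CPM in Cd_R. Of 43 named unigenes, 26 kept the sign of their log2 fold change throughout. The cause of the other reversals was not tested. With the replicate block, Cluster-14691.16329 was at -0.19 and Cluster-14691.21254 at -0.035. With library totals, Cluster-14691.70710 was at 0.10. Without CK_R replicate 3 and Cd_R replicate 1, it was at 0.23, Cluster-14691.18853 at -0.12, Cluster-14691.18856 at -0.014 and Cluster-14691.47318 at -0.030. With single libraries left out, the log2 fold change ran from -0.65 to 0.44 for Cluster-14691.16246, -0.60 to 0.53 for Cluster-14691.16329, -0.21 to 0.88 for Cluster-14691.74013, -0.91 to 0.19 for Cluster-14691.74038, -0.63 to 0.022 for Cluster-14691.74094, -0.32 to 0.61 for Cluster-14691.21254, -0.18 to 0.38 for Cluster-14691.18853, -0.14 to 0.47 for Cluster-14691.18856, -0.34 to 0.25 for Cluster-14691.70710, -1.95 to 1.04 for Cluster-14691.73988, -1.74 to 5.17 for Cluster-14691.15677, -0.38 to 0.63 for Cluster-14691.74506, -0.95 to 0.23 for Cluster-14691.7598, -4.42 to 0.092 for Cluster-14691.16299, -0.0015 to 0.32 for Cluster-14691.47318, -1.54 to 0.80 for Cluster-14691.13800 and -0.16 to 0.17 for Cluster-14691.55073. At about 24 counts for 1 CPM, the lowest root count of any of the 200 was 25.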
